A study of Mus musculus with 27 samples.

Results

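The genes described here are 8 markers of mesothelium and of simple epithelia: the uroplakins *Upk3b* and *Upk1b*, mesothelin (*Msln*), the leucine-rich repeat protein *Lrrn4*, and the keratins *Krt7*, *Krt8*, *Krt18* and *Krt19*. They are 8 of the 48795 genes listed for each library of a study that took mouse embryonic stem cells (ESCs) toward gonadal progenitors. The list was chosen by the rise of *Upk3b* in IM3 relative to IM1, that is when retinoic acid (RA) was added. Values of IM3 against IM1 are therefore given as a description without a test, and *Upk3b* was tested only in comparisons that use neither of these groups. All 8 symbols were matched to their Ensembl genes, and all 8 passed the filter on low counts that kept 20839 genes.

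All cells came from 1 clone, clone 7, of XY cells that carry the Tesco-CFP reporter and the R26-rtTA transgene on an F1 background of C57BL/6 and CBA. ESC were the undifferentiated cells. EpiSC were cells after 60 h in basic fibroblast growth factor (bFGF) at 12 ng/ml with Activin A at 20 ng/ml. M, an early mesoderm stage, followed after 36 h with bFGF at 20 ng/ml, bone morphogenetic protein 4 (BMP4) at 10 ng/ml and the kinase inhibitor LY294002 at 10 µM. The 5 IM media were given for 3.5 days, and bFGF at 5 ng/ml and BMP4 at 20 ng/ml were common to them. IM1 had nothing else, IM3 had RA at 100 nM, and IM2 had this RA dose together with Activin A at 10 ng/ml. IM4 was IM3 with 0.3 µM CHIR99021, an inhibitor of the kinase GSK3, and IM5 was IM2 with the same dose of CHIR99021. The iSLC were cells infected for 24 h with lentivirus for *Nr5a1* and *Dmrt1*, exposed to doxycycline for 4 days in a Sertoli cell medium that held Activin A, FGF9, EGF, FSH, prostaglandin D2 and testosterone, dissociated and sorted for CFP. The study lists no RA, BMP4 or bFGF for this Sertoli cell medium. These steps and the change of medium all separate iSLC from IM3, so their contributions cannot be told apart.

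Mesothelium is the flat epithelium that lines the body cavities and covers the organs in them, and in the embryo it derives from the coelomic epithelium, which also gives rise to the somatic cells of the gonad. Its cells keep keratin filaments of the simple type while they carry *Wt1* and other genes of mesoderm. *Upk3b* encodes a uroplakin, a membrane protein first known from the urothelium of the bladder and also used as a mesothelial marker, and *Upk1b* encodes a tetraspanin that pairs with it. Keratins form filaments as obligate pairs of a type II and a type I chain: *Krt7* and *Krt8* are type II, *Krt18* and *Krt19* type I.

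Expected counts, which are RSEM's estimates of the fragments of each gene, summed to between 35923040 and 84876603 per library. Transcript levels are given as TPM, a relative transcript abundance that corrects for gene length and library size. The labels number 3 libraries in each of 9 groups. The study calls them biological replicates, and the labels do not say whether they came from separate cultures, so p-values measure the spread between these libraries. *Nr5a1* stood at 87.2, 94.0 and 100.3 TPM in the 3 iSLC libraries and at 0.15 TPM or less in the other 24, and *Dmrt1* at 192, 219 and 228 TPM in iSLC. A sum of 6 adult red blood cell genes was 3.90 to 27.1 CPM (counts scaled to a fixed library size) in 12 libraries, those of IM3, IM4, M and ESC, and 0.380 to 1.39 in the other 15. Comparisons of EpiSC with ESC, M with EpiSC, IM1 with M, IM3 with IM1, IM2 with IM3, IM5 with IM4 and iSLC with IM3 run across this division. Its part in their values was not tested. Comparisons of IM3 or IM4 with M, IM4 with IM3, IM2 with IM1 and IM5 with IM2 lie within one side. In bulk RNA, fewer cells of a kind and less RNA per cell cannot be told apart, for every difference given here.

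The genes lie on 6 chromosomes (GRCm38). *Upk3b* is at chr5:136038496-136046487 on the plus strand, *Upk1b* at chr16:38773184-38800328 on the minus strand, *Msln* at chr17:25748613-25754378 on the minus strand and *Lrrn4* at chr2:132868305-132880891 on the minus strand. *Krt7* (chr15:101411043-101430313, plus), *Krt8* (chr15:101996698-102004482, minus) and *Krt18* (chr15:102028180-102032027, plus) share chromosome 15, and *Krt19* is at chr11:100140810-100148665 on the minus strand. *Krt8* and *Krt18* are transcribed away from each other, with 23698 bases between their outermost annotated starts. RefSeq promoter windows of the GRCm38.p6 assembly were found for 5 of the 8 members. The bases before the start that lie in no annotated exon are shown for the 2 surface markers and the 2 keratins whose levels the results below turn on, each along the strand of its gene. Capitals mark matches, on either strand, to AGGTCA and AGTTCA, which are core sites of retinoid receptors, and to GGAATG, a core site of TEAD factors.
Upk3b, chr5:136038246-136038495, plus strand: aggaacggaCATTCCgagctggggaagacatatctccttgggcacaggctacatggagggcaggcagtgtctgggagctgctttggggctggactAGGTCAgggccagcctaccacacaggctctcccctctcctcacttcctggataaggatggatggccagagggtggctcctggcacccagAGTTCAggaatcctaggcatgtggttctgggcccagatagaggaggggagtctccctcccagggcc
Lrrn4, chr2:132880892-132881112, minus strand: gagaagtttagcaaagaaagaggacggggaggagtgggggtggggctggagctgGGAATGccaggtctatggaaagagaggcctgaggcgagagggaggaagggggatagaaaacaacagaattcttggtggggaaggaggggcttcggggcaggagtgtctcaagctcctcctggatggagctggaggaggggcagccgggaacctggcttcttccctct
Krt8, chr15:102004483-102004592, minus strand: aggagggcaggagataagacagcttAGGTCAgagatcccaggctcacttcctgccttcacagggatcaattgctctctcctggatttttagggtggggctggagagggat
Krt18, chr15:102027966-102028179, plus strand: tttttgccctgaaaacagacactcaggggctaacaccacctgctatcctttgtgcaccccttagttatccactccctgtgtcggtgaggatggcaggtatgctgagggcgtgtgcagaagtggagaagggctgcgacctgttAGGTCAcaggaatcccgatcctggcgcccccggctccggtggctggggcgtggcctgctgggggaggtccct

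*Upk3b* had both AGGTCA and AGTTCA on its own strand, 155 and 66 bases before the start, in a window in which 13.8% and 11.9% of 27025 promoters hold such a match. *Krt8* and *Krt18* each had 1 AGGTCA, at 225 and 108 bases before the RefSeq start, against 6.2% and 12.1% of promoters over windows of the same lengths. *Lrrn4* had GGAATG at 196 bases before the start, and *Upk3b* had its reverse complement at 241 bases, against 11.4% and 12.6% of promoters. TGANTCA (AP-1), GGGCGG (Sp1 and its relatives) and TATAAA were searched in the same windows and had no match in any of the 4. No matches overlapped. A match of so few letters describes the sequence and is not a binding site.

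*Upk3b* was nearly silent before the IM stage and reached its highest levels in IM3. Its level was 0.42, 0.18 and 0.31 TPM in ESC, 0.03, 0.04 and 0.01 in EpiSC and 0.35, 0.14 and 0.07 in M. In IM1, without RA, it was 3.38, 1.33 and 1.18 TPM. All 12 RA-treated libraries of IM2 to IM5 lay above these, with no overlap. The level was 217, 224 and 204 TPM in IM3, 174, 184 and 168 in IM4, 54.0, 61.3 and 52.8 in IM2 and 23.1, 25.1 and 22.8 in IM5. The 2 media with Activin A, IM2 and IM5, thus stood between IM1 and the 2 media with RA but without Activin A. In iSLC it was 32.6, 30.6 and 27.8 TPM. From the top, the order was IM3, IM4, IM2, iSLC, IM5, IM1, ESC, M and EpiSC, and of these neighbours only ESC and M overlapped.

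*Upk1b* had the same highest groups at lower levels. It was at 40.2, 39.8 and 38.0 TPM in IM3, 25.1, 27.04 and 26.6 in IM4, and 20.6, 18.6 and 17.99 in iSLC. IM2 followed with 11.1, 10.6 and 10.0 TPM, and IM5 (5.83, 4.58 and 3.95) overlapped with IM1 (4.75, 3.88 and 4.45). In ESC, EpiSC and M every library was at 0.14 TPM or less, and the 3 M libraries held 2, 2 and 1 counts, no more than the floor of 3 counts used here for a detectable gene. In IM1, without RA, *Upk1b* exceeded *Upk3b* in each library, with a ratio of *Upk3b* to *Upk1b* of 0.440 ± 0.239 (SD, n = 3). *Upk3b* was chosen by its rise in IM3 relative to IM1, so this ratio is a description that partly restates the choice. Before the IM stage, on few counts, the ratio was 3 to 18 in ESC, 0.125 to 0.75 in EpiSC and 3.5 to 8.75 in M. In IM2 to IM5 this ratio was between 3.96 and 6.94 in all 12 libraries, and in iSLC 1.59 ± 0.0503 (SD, n = 3).

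*Msln*, which encodes a membrane-anchored glycoprotein of mesothelial cells, had the lowest peak level of the members. It reached 4.17, 4.31 and 4.35 TPM in IM3, above 2.60, 2.38 and 2.48 in iSLC. Next came IM4 (1.49, 2.10 and 2.03), which overlapped with IM2 (1.75, 1.83 and 1.54), and ESC (1.19, 1.16 and 1.13). IM5 had 0.70, 0.94 and 0.81 TPM and IM1 0.56, 0.50 and 0.29, and EpiSC and M libraries were all at 0.24 or less. Its mean normalized count over the 27 libraries was 98.1, just under the 100 that a call requires here, so no value of *Msln* could be called, whatever its size. *Lrrn4*, a leucine-rich repeat membrane protein also used as a mesothelial marker, was never off: it was at 98.2, 102 and 97.6 TPM in IM3 and 68.5, 76.0 and 74.5 in IM4. EpiSC came next, with 41.2, 45.4 and 40.9 TPM, ahead of IM2 with 39.7, 35.2 and 33.9. M, IM5, ESC and IM1 lay between 18.2 and 26.4 TPM in all libraries, with each overlapping its neighbour in the order, and iSLC were lowest with 17.4, 16.4 and 14.6.

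**Figure D1:**
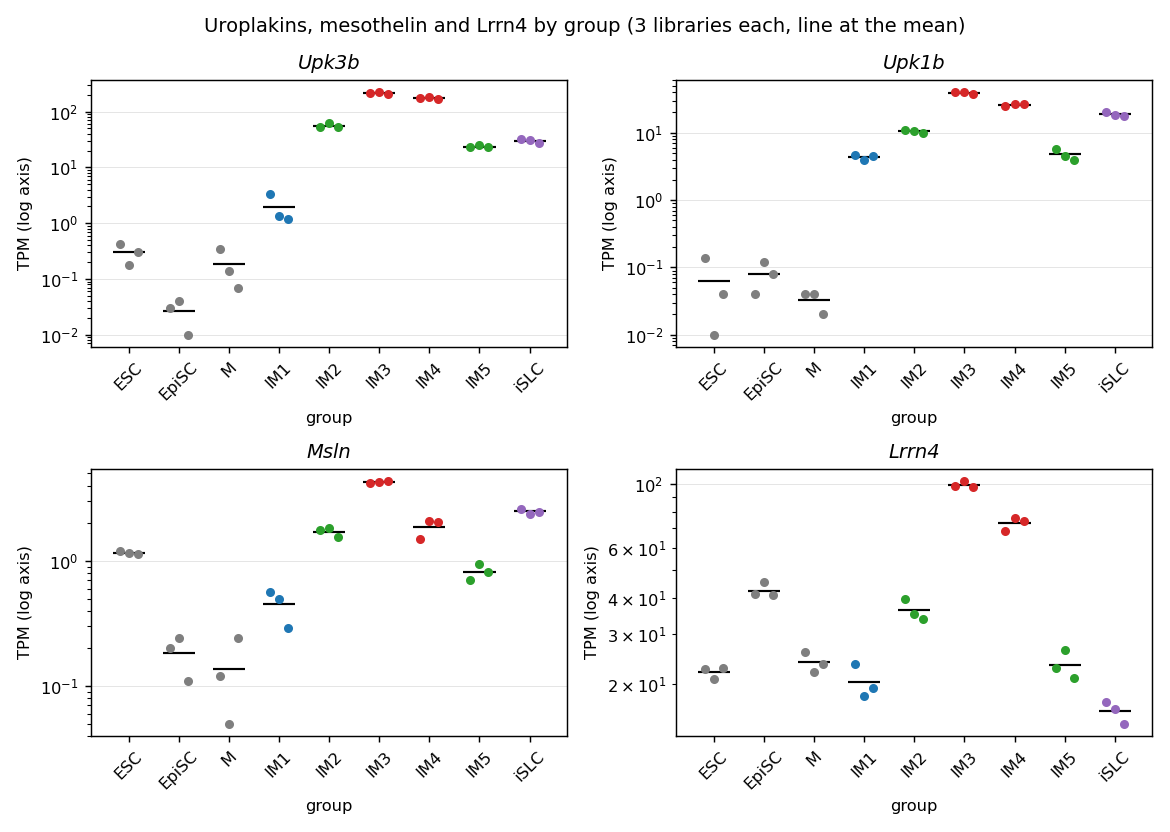
Levels of *Upk3b*, *Upk1b*, *Msln* and *Lrrn4* in TPM (vertical log axes, a scale for each gene) in the 9 groups. Each point is a library and each line the mean of 3. All 4 genes were highest in IM3, and *Upk3b* lay between 0.01 and 224 TPM.

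In IM3 relative to IM1, the difference that chose the list, log2 differences of normalized counts (counts scaled by edgeR's TMM factors) were 6.71 for *Upk3b*, 3.16 for *Msln*, 3.08 for *Upk1b* and 2.20 for *Lrrn4*. These 4 were at least 2-fold higher and no member was 2-fold lower, where 18.9% of the 20839 genes were 2-fold or more apart either way. The median over the 8 members was 1.49, and that over all genes was 0. *Krt7* was higher by 0.79, *Krt8* and *Krt18* lower by 1.71-fold and 1.69-fold, and *Krt19* differed by -0.07, or by 0.16 with an offset for GC content. By size, as a description, the rise next below that of *Upk3b* among genes past the thresholds given below was that of *Ppbp*, a platelet chemokine, at 6.70. The rise above it was that of *AY036118*, whose position lies inside an rRNA gene and the lincRNA *Gm42418*, so its counts are uncertain. *AY036118* had 0 counts in every EpiSC, IM1, IM2 and iSLC library and in 2 of 3 of IM5, and 1968 or more in every ESC, M, IM3 and IM4 library. Apart from 1 IM5 library with 3117, this is the division of libraries by red blood cell genes given above.

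The test asked which members changed at each step in normalized counts, and rises and falls below are log2 fold changes of these unless written as a fold. A member was called at an adjusted p of at most 0.01 in edgeR's quasi-likelihood test, over all 20839 genes, with a 2-fold difference or more and a mean normalized count of 100 or more, both across the 27 libraries and in 1 or both of the compared groups. From ESC to EpiSC, *Krt7* fell by 1.09 on the log2 scale (SE 0.10, edgeR adjusted p = 2.6e-10), from 23.6, 23.2 and 22.2 TPM to 8.43, 8.44 and 9.50. This was 1 of 8 members called, where 8.07% of all genes were. The median log2 fold change was -0.47 over the members and -0.0026 over all genes. *Lrrn4* was 1.98-fold higher in EpiSC (edgeR adjusted p = 1.49e-10), just under the fold required. *Upk3b* and *Msln* were at -3.45 ± 0.90 and -2.62 ± 0.27 (log2 fold change, SE), and neither reached the count minimum.

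At the mesoderm step, from EpiSC to M, the 3 abundant keratins rose together while *Krt7* fell. *Krt19* rose by 2.12 (SE 0.08, edgeR adjusted p = 6.56e-19), *Krt8* by 1.903 (SE 0.08, edgeR adjusted p = 7.47e-17) and *Krt18* by 1.68 (SE 0.06, edgeR adjusted p = 3.77e-18). *Krt7* fell 8.84-fold (edgeR adjusted p = 2.58e-18), to 1.10, 1.14 and 1.47 TPM. In all, 4 of 8 members were called against 14.5% of all genes, with a median log2 fold change of 0.61 over the members and -0.06 over all genes. *Lrrn4*, at -0.90, had a small p and less than a 2-fold difference (edgeR adjusted p = 3.67e-10). *Upk3b* and *Msln* were not called, at 2.83 ± 0.99 and -0.47 ± 0.38 (log2, SE).

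From M to IM1, that is without RA, *Upk1b*, *Krt7* and *Krt19* rose: 3 of 7 members tested, where 15.7% of genes were called. Summed counts of *Upk1b* gave a ratio of 134 (95% counting interval 57.4 to 415, edgeR adjusted p = 9.75e-17), and the counting interval covers the counting of reads only. *Krt7* rose by 1.87 (SE 0.12, edgeR adjusted p = 2.19e-13) and *Krt19* by 1.12 (SE 0.07, edgeR adjusted p = 1.48e-13). *Krt8* and *Krt18* were 1.64-fold and 1.55-fold higher, under the fold required, and *Lrrn4* 1.26-fold lower. *Msln* was 3.01-fold higher (edgeR adjusted p = 0.000121) and short of the count minimum, and *Upk3b*, not tested, was 9.60-fold higher. The rise of *Krt19* was 0.83 with an offset for GC content, under 2-fold.

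From M to IM3, that is with RA, *Upk1b*, *Lrrn4*, *Krt7* and *Krt19* rose, which is 4 of 7 members tested against 14.9% of genes, with a median of 1.87 over the 7 members and 0 over all genes. The count ratio of *Upk1b* was 1143 (95% counting interval 490 to 3523, edgeR adjusted p = 3.08e-22). *Lrrn4* rose by 1.87 (SE 0.09, edgeR adjusted p = 1.32e-16) and *Krt7* by 2.66 (SE 0.12, edgeR adjusted p = 1.18e-16). *Krt19* rose by 1.05 (SE 0.07, edgeR adjusted p = 5.64e-13), or by 0.99 and so under 2-fold with the GC offset. *Msln* was higher by 4.75 ± 0.28 (log2, SE) from 8, 3 and 17 counts in M, short of the count minimum. *Krt8* and *Krt18* differed from M by -0.06 (95% interval -0.23 to 0.11) and -0.13 (-0.26 to 0.00), and neither was called (edgeR adjusted p = 0.508 and 0.0762).

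From M to IM4, with RA and CHIR99021, *Upk3b* itself could be tested, and it rose by 9.72 (SE 0.30, edgeR adjusted p = 2.57e-20) from 41, 16 and 9 counts in M to between 16082 and 23031. *Upk1b* rose with a count ratio of 785 (95% counting interval 336 to 2420, edgeR adjusted p = 1.63e-21), *Krt7* rose by 2.38 (SE 0.12, edgeR adjusted p = 1.29e-15) and *Lrrn4* by 1.46 (SE 0.08, edgeR adjusted p = 2.1e-14). These were 4 of 8 members against 14.8% of genes, with a median of 1.92 over the members. *Krt19* was 1.61-fold higher, while *Krt8* and *Krt18* were at -0.12 and -0.11 (edgeR adjusted p = 0.209 and 0.117). The comparisons of IM1, IM3 and IM4 with M share the 3 M libraries.

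Where Activin A was present *Upk1b* and *Lrrn4* were lower, and *Krt8* and *Krt18* were within 2-fold. Without CHIR99021, in IM2 relative to IM3, *Upk1b* fell by 1.86 (SE 0.12, edgeR adjusted p = 1.59e-12) and *Lrrn4* by 1.43 (SE 0.08, edgeR adjusted p = 3.66e-13): 2 of 7 members, where 3.8% of genes were called. *Upk3b*, not tested here, was 3.77-fold lower, and *Msln* 2.45-fold lower at too few counts for a call. *Krt7* and *Krt19* were lower by 1.67-fold and 1.41-fold, and *Krt8* and *Krt18* were both 1.38-fold higher. The median log2 fold change was -0.74 over the 7 members and 0 over all genes.

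With CHIR99021 present, in IM5 relative to IM4, the same comparison could include *Upk3b*. It fell by 2.84 (SE 0.18, edgeR adjusted p = 1.21e-12), *Upk1b* fell by 2.38 (SE 0.12, edgeR adjusted p = 3.27e-14) and *Lrrn4* fell by 1.59 (SE 0.08, edgeR adjusted p = 4.96e-14). In every case all 3 IM5 libraries lay below all 3 IM4 libraries. These 3 of 8 members stand against 4.09% of genes called, or 1.46% called lower, with a median of -0.98 over the members and 0 over all genes. *Krt7* was 1.75-fold lower (edgeR adjusted p = 5.53e-07), *Msln* 2.23-fold lower, and the other 3 keratins were at most 1.2-fold apart. The difference between the Activin A effects with and without CHIR99021, tested as an interaction, called 0 of 7 members in edgeR and 0 in the Wald test of DESeq2, where 0.0336% of genes were called and 2191 genes had an unadjusted p under 0.05 in edgeR. Of the 7, the largest coefficient was that of *Upk1b*, -0.52 (95% interval -0.87 to -0.17, edgeR adjusted p = 0.23). Those of *Lrrn4* (-0.16, interval -0.41 to 0.08) and *Msln* (0.13, interval -0.50 to 0.77) had intervals across 0, as did that of *Krt7* (-0.06, interval -0.37 to 0.25). *Krt18* was at -0.23 (interval -0.42 to -0.05, edgeR adjusted p = 0.325), *Krt8* at -0.25 (interval -0.49 to -0.0053, edgeR adjusted p = 0.454) and *Krt19* at 0.23 (interval 0.02 to 0.43, edgeR adjusted p = 0.419).

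CHIR99021 added to RA alone, in IM4 relative to IM3, called 0 of 7 members in edgeR and 0 in the Wald test of DESeq2, where 0.101% of genes were called and 2517 genes had an unadjusted p under 0.05 in edgeR. *Upk1b*, *Lrrn4* and *Krt19* were 1.46-fold, 1.33-fold and 1.29-fold lower at edgeR adjusted p of 0.00621, 0.00528 and 0.00333, under the fold required. *Msln* was 2.21-fold lower (edgeR adjusted p = 0.00153) and short of the count minimum. *Krt8* and *Krt18* were at -0.05 (95% interval -0.22 to 0.12) and 0.01 (-0.12 to 0.15).

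With Activin A in both media, in IM5 relative to IM2, both uroplakins fell. *Upk3b* fell by 1.18 (SE 0.17, edgeR adjusted p = 3.77e-05), from 54.0, 61.3 and 52.8 TPM to 23.1, 25.1 and 22.8, and *Upk1b* by 1.06 (SE 0.13, edgeR adjusted p = 2.25e-06). They were 2 of 8 members called against 0.235% of all genes. The Wald test of DESeq2 called only 1 of them, since *Upk3b* had an adjusted p of 0.0214 there. The log2 fold change of *Upk1b* was -0.995 without replicate 2 of IM5 and -0.93 without replicate 3, under 2-fold in both. IM2 relative to IM1, which differ in RA and Activin A together, had 1 of 7 members called against 3.51% of genes: *Upk1b* rose by 1.22 (SE 0.13, edgeR adjusted p = 1.31e-08). *Upk3b* was 27.7-fold higher there and was not tested, and *Msln* was 3.65-fold higher at too few counts for a call.

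**Figure D2:**
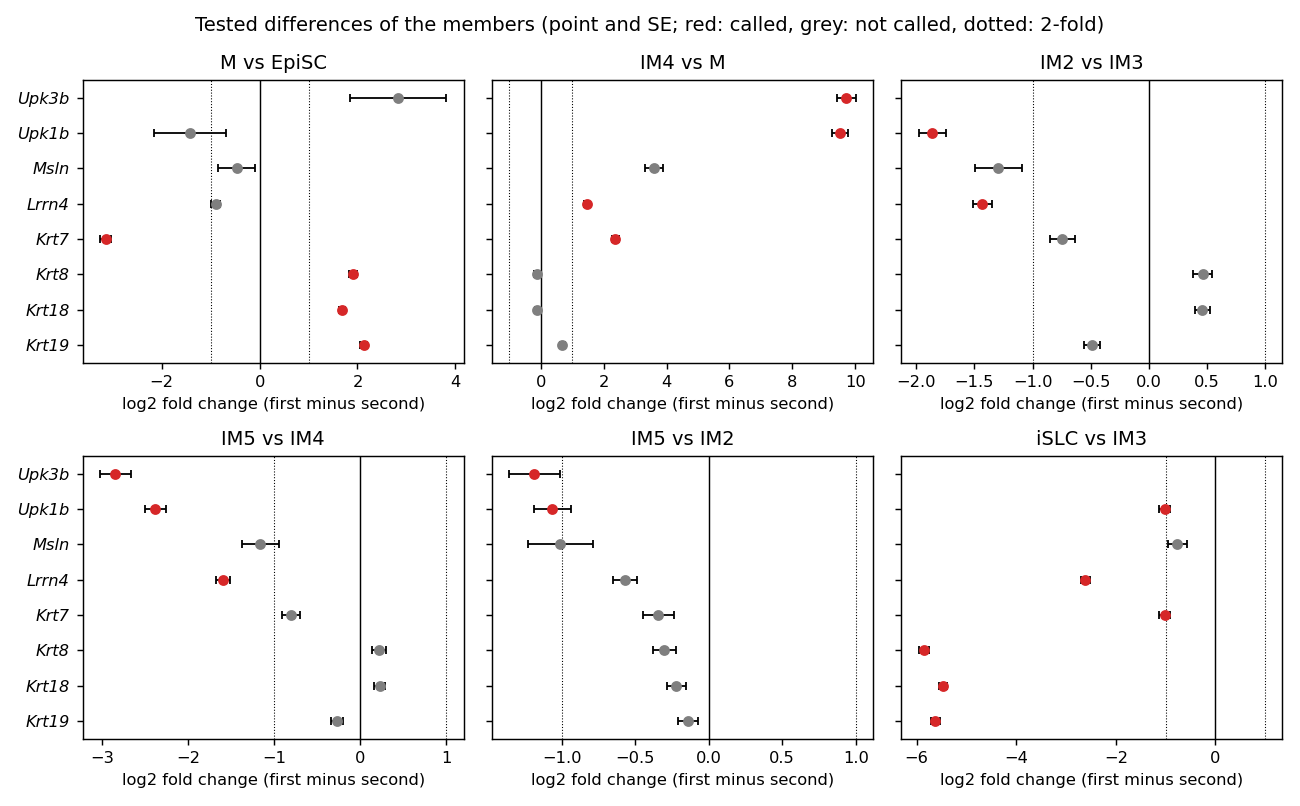
Log2 fold changes of the members in 6 comparisons (horizontal axes, first group minus second, a scale for each panel), with SE as error bars. Red points passed the thresholds for a call, grey points did not, dotted lines mark a 2-fold difference, and *Upk3b* is left out where its values chose the list. *Upk3b* and *Upk1b* fell with Activin A (IM5 vs IM4), and 3 keratins fell by more than 5 on the log2 scale in iSLC.

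*Krt8* and *Krt18*, the first keratin pair of the embryo, were the most abundant members in each group but iSLC, and both were highest in IM1. *Krt8* was at 1802, 1615 and 1659.8 TPM in IM1, 1337, 1478 and 1458 in IM2 and 1155, 1138 and 1031 in IM5. IM5, IM3 (1094, 1049.8 and 1031), IM4 (1111, 947 and 926) and M (957, 1055 and 888) formed a run in which each group overlapped the next. ESC (301, 301 and 288) and EpiSC (240.5, 251 and 246) were lower without overlap, and iSLC lowest with 19.6, 16.1 and 18.04. *Krt18* had the same order of groups: 1215, 1069.6 and 1134 TPM in IM1, 684 to 777 in IM3, 673 to 725 in M, 193 to 212 in EpiSC and 16.9, 14.8 and 16.1 in iSLC. The order of M among the IM groups changed with normalized counts or FPKM in place of TPM.

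*Krt19*, a type I keratin without a tail domain, was about as high in IM3 as in IM1. Its level was 448, 451 and 440.4 TPM in IM3 and 484, 417 and 399 in IM1, which overlapped, and IM1 rather than IM3 was the highest group by normalized counts and by FPKM. IM4 followed with 330.1, 334 and 327, then IM2 with 264, 331 and 310.1 and IM5 with 262, 269 and 264. M (195, 187 and 181), ESC (60.1 to 62.5), EpiSC (40.3 to 42.3) and iSLC (10.1, 8.96 and 8.09) came below.

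*Krt7*, a type II keratin of ducts and mesothelium, was highest in ESC and lowest in M. Among the IM media it was at 13.7, 10.1 and 10.7 TPM in IM3, 9.64, 8.90 and 5.56 in IM4, 6.29, 5.79 and 6.15 in IM2, 4.91, 4.31 and 4.33 in IM1 and 3.30, 4.74 and 4.51 in IM5. In TPM the IM3 libraries lay above all libraries of the other 4 media. By normalized count they did not, since replicate 1 of IM4 (893) was above replicate 3 of IM3 (777). The effective length that RSEM used for *Krt7* ranged from 2086 bases in an IM3 library to 3699 in an EpiSC library, which is 1.77-fold, while for the other members it differed by at most 1.11-fold. With an offset for this length, *Krt7* was higher in IM3 than in IM1 by 1.25 rather than 0.79 (log2, no test), and its rise from M to IM3 was 3.03.

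**Figure D3:**
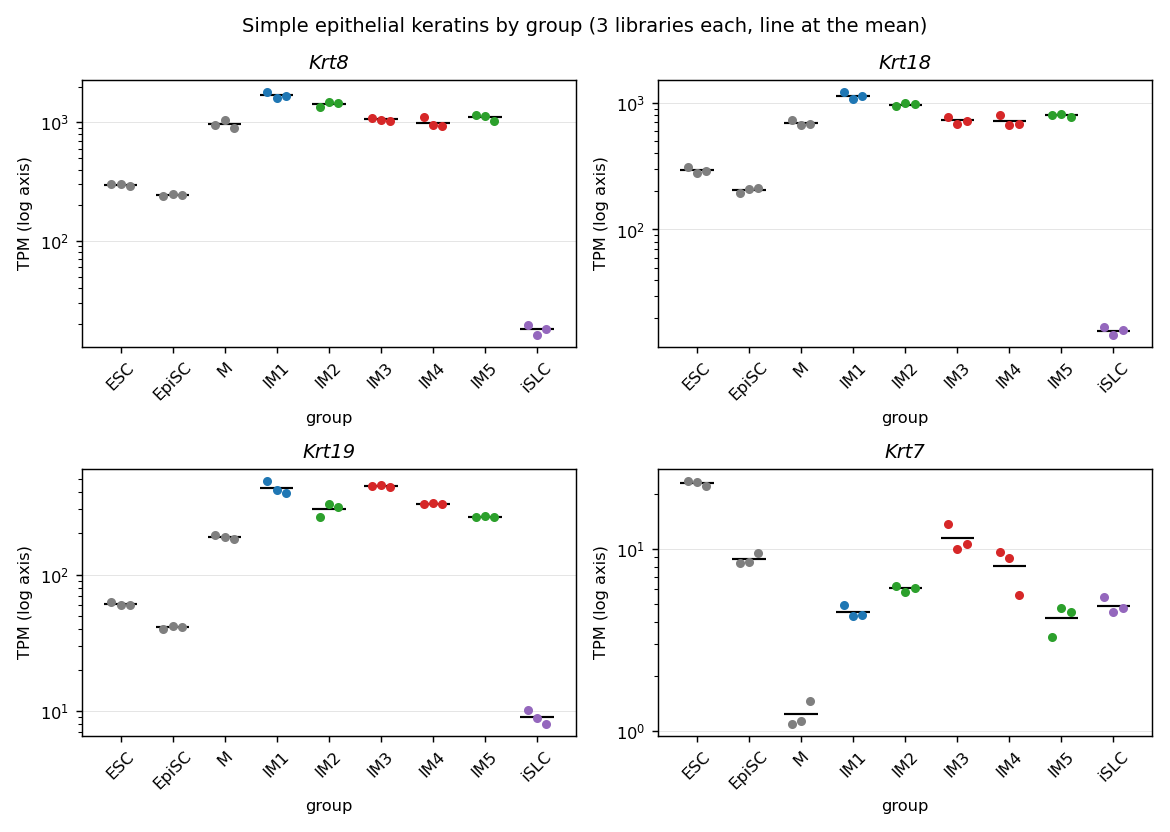
Levels of *Krt8*, *Krt18*, *Krt19* and *Krt7* in TPM (vertical log axes, a scale for each gene) in the 9 groups. Each point is a library and each line the mean of 3. *Krt8*, *Krt18* and *Krt19* were lowest in iSLC, at 8.09 to 19.6 TPM, and *Krt7* was lowest in M.

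In iSLC relative to IM3 the 3 abundant keratins fell 44.5-fold to 58.0-fold, and the surface markers were lower by 1.69-fold to 7.03-fold. *Krt8* fell by 5.86 (SE 0.10, edgeR adjusted p = 3.76e-25), *Krt19* by 5.62 (SE 0.09, edgeR adjusted p = 1.06e-25) and *Krt18* by 5.48 (SE 0.08, edgeR adjusted p = 1.34e-26). *Krt18* is on a list of Sertoli cell genes that the study used. The iSLC medium held Activin A and that of IM3 did not. IM3 held RA, BMP4 and bFGF, which the study does not list for the iSLC medium. The parts of these factors in the falls were not tested. *Lrrn4* fell by 2.61 (SE 0.09, edgeR adjusted p = 1.45e-19), and *Upk1b* (SE 0.11) and *Krt7* (SE 0.10) both by 1.02, at edgeR adjusted p of 7.53e-09 and 1.85e-09. These 6 of 7 members stand against 19.2% of genes called, or 8.92% called lower, with a median log2 fold change of -2.61 over the members and 0 over all genes.

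*Msln* was 1.69-fold lower in iSLC and *Upk3b*, not tested, 7.03-fold lower. The 95% intervals of the log2 fold changes ran from -6.07 to -5.31 for the 3 abundant keratins and from -1.26 to -0.78 for *Upk1b*, and the difference between genes was not itself tested. The calls of *Upk1b* and *Krt7* lay at the edge of 2-fold: *Upk1b* was at -0.96 with the GC offset, -0.99 without replicate 2 of iSLC and -0.98 without replicate 3, and *Krt7* at -0.91 without replicate 1 of IM3 and -0.999 without replicate 3 of iSLC.

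The 4 keratins together took 0.0673% ± 0.0023 of all TPM in ESC (SD, n = 3), 0.05% ± 0.0016 in EpiSC, 0.185% ± 0.0085 in M and 0.327% ± 0.021 in IM1, and 0.224% ± 0.0079 in IM3. In iSLC they took 0.00478% ± 0.00039. The ratio of *Krt8* to *Krt18* in TPM, type II to type I, was 1.02 ± 0.062 in ESC and 1.21 ± 0.043 in EpiSC. It was between 1.3 and 1.57 in all 18 libraries of M and the 5 IM media, and 1.12 ± 0.033 in iSLC. The ratio of *Krt19* to *Krt18* was 0.577 to 0.660 in IM3, above the 0.415 to 0.498 of IM4 and the 0.283 to 0.398 of the other IM libraries, and 0.502 to 0.607 in iSLC. IM3 and IM4 thus had more *Krt19* per *Krt18* than IM1, IM2 and IM5, without overlap. With 3 libraries a group, an exact permutation test cannot give a p under 0.1, and none was run on these ratios.

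**Figure D4:**
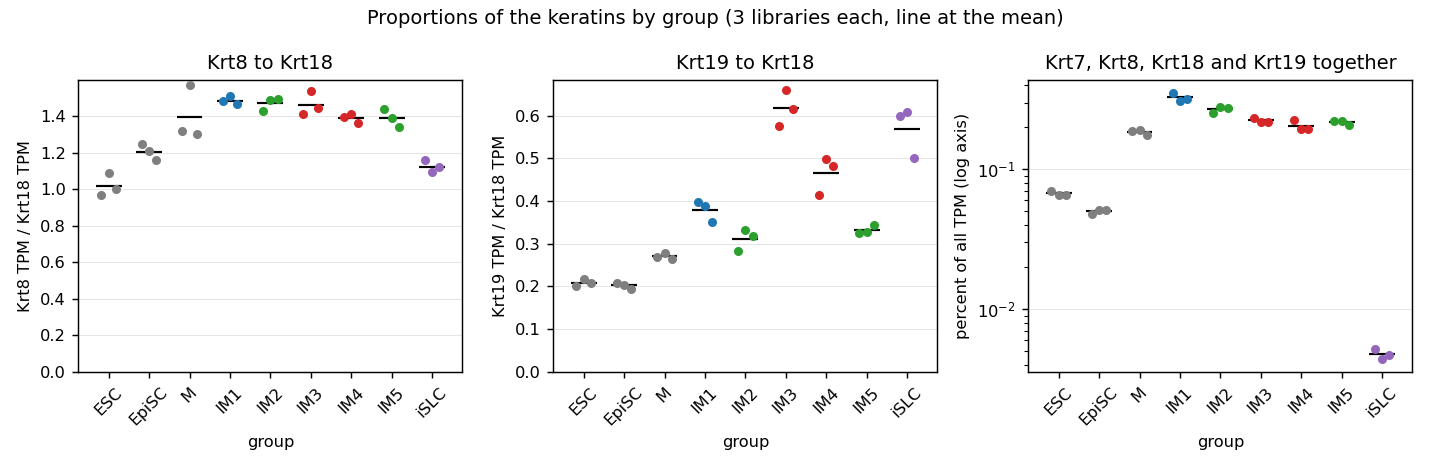
Ratios of *Krt8* to *Krt18* and of *Krt19* to *Krt18* in TPM (linear axes from 0) and the share of all TPM taken by *Krt7*, *Krt8*, *Krt18* and *Krt19* (log axis) in the 9 groups. Each point is a library and each line the mean of 3. *Krt19* to *Krt18* was highest in IM3, at a mean of 0.618, and the share was lowest in iSLC.

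Across the 27 libraries the members formed sets by their log2 CPM. *Krt8* and *Krt18* had a Pearson correlation of 0.997, *Krt19* had 0.966 and 0.953 with them, and *Upk3b* and *Upk1b* had 0.937 with each other. *Msln* followed *Upk3b* with 0.816, while *Lrrn4* (0.343) and *Krt7* (-0.095) did so little. These correlations describe libraries that share their groups, so most of each is the difference between 9 conditions. The libraries include those of IM3 and IM1, whose difference chose *Upk3b*, so likeness to *Upk3b* partly restates that choice. Of all genes tested, the 3 most like *Upk3b* were *Ildr2* (0.971), *Zfp804a* (0.971) and *Rarb* (0.969), the last a retinoic acid receptor. For *Upk1b* they were *St7* (0.986), *Enpp1* (0.983) and *Itm2a* (0.982), for *Msln* *Rab30*, *Abca3* and *Atp2b4* (0.934 to 0.954), and for *Lrrn4* *Arhgap22*, *Stk26* and *Cntn2* (0.907 to 0.948). For *Krt7* they were *Akap1*, *Serpinb9e* and *Rhox6* (0.95 to 0.959), for *Krt8* and *Krt18* each other, *Krt8-ps* (0.993) and *Prep* (0.973), and for *Krt19* *Grb10* (0.979), *Krt8* and *Krt8-ps*. *Krt8-ps* is a processed pseudogene of *Krt8* at 0.37 to 48.7 TPM, and reads of the 2 may have been split between them.

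Other genes of coelomic epithelium and mesothelium were measured beside the members. Of 15 such genes, 6 rose and 0 fell from M to IM1, 11 rose and 0 fell from M to IM3, and 9 rose and 0 fell from M to IM4. Of all genes, 9.72%, 9.26% and 9.01% were called higher at these steps. The median log2 fold changes of the 15 were 1.3, 3.57 and 2.94, against 0.0016, 0 and 0 over all genes. *Wt1*, a transcription factor of this epithelium, rose by 5.78 to IM3 (SE 0.12, edgeR adjusted p = 9.85e-24), and *Bnc1*, a zinc finger protein, rose by 5.48 to IM4 (SE 0.17, edgeR adjusted p = 5.37e-20). With Activin A, 10 of the 15 fell and 0 rose in IM5 relative to IM4, and likewise in IM2 relative to IM3, where 1.46% and 1.34% of all genes were called lower, with *Wt1* falling by 2.55 in the former (SE 0.10, edgeR adjusted p = 6.5e-17). In iSLC relative to IM3 they parted, with 4 higher and 4 lower, where 10.3% of all genes were called higher and 8.92% lower. *Aldh1a1*, an enzyme of RA synthesis, rose by 5.60 (SE 0.18, edgeR adjusted p = 7.1e-20), and *Podxl*, a sialomucin of the apical surface, fell by 4.22 (SE 0.10, edgeR adjusted p = 9.52e-23). *Wt1* stood at a mean of 149 TPM in IM3 and 116 in iSLC.

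Of 23 genes of epithelial junctions and their regulators, 2 rose and 15 fell from EpiSC to M, where 6.79% of all genes were called higher and 7.72% lower. From M to IM1, 5 rose and 4 fell, with a median log2 fold change of -0.18, against 9.72% and 5.94% of all genes. From M to IM4, 1 rose and 6 fell, against 9.01% and 5.76%. From M to IM3, 1 rose and 8 fell, against 9.26% and 5.66%, led by the splicing factor *Esrp1* (log2 fold change -3.03) and the adhesion molecule *Epcam* (-2.62). *Cdh1*, E-cadherin, fell from 60.8 TPM in M to 14.7 in IM3 (group means), and *Vim*, the intermediate filament of mesenchyme, stood at 538 TPM in M and 1592 in IM3. The rise of *Vim* was not particular to RA: it was 2.26 from M to IM1 and 1.37 from M to IM3. With Activin A *Vim* was higher, by 1.09 in IM2 relative to IM3 and by 1.04 in IM5 relative to IM4. The desmosome gene *Dsp* was at a mean of 102 TPM in M, 156 in IM3 and 55.1 in IM5, and it fell by 1.27 with Activin A in IM5 relative to IM4 (SE 0.08, edgeR adjusted p = 2.47e-12). In iSLC relative to IM3, 1 rose and 16 fell, against 10.3% of all genes called higher and 8.92% lower, among them *Cldn6* by 4.09 and *Dsp* by 3.84. *Vim* was at a mean of 2416 TPM in iSLC. Of 4 other intermediate filament genes (*Vim*, *Des*, *Nes* and *Lmna*), 3 rose from M to IM3 and 3 from M to IM1. The shares of all genes called higher at these steps were 9.26% and 9.72%.

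The other uroplakins stayed at low levels. *Upk1a*, *Upk2*, *Upk3a* and *Upk3bl* together were at 0.56 to 0.74 TPM in M and 1.7 to 2.66 in IM3, and *Upk2* was at or under 3 counts in every IM3 library. Of 2 further simple keratins, *Krt20*, a keratin of gut and urothelium, rose by 4.65 from M to IM3 (SE 0.25, edgeR adjusted p = 2.82e-15) to a mean of 7.27 TPM, and *Krt23* was at 2.62. Of 11 keratins of stratified epithelia, *Krt4* and *Krt6b* were at or under 3 counts in every IM3 library. From M to IM3, 1 of the 9 tested was called, where 14.9% of all genes were. It was *Krt13*, a keratin of moist stratified epithelium, which went from at or under 3 counts in M to a mean of 12.8 TPM in IM3. It was also called from M to IM1, where its mean was 7.29 TPM, and was at 17.4 in IM2. A sum of 6 urothelial genes was 2.09 to 2.5 TPM in M, 6.05 to 6.69 in IM1 and 7.1 to 7.81 in IM3, and one of 6 surface ectoderm genes 20.9 to 23.2 in M, 49.2 to 60.7 in IM1 and 70.8 to 85.2 in IM3. Of the 6 surface ectoderm genes, 2 rose and 0 fell from M to IM3, against 9.26% of all genes called higher and 5.66% lower. *Trp63*, a defining factor of surface ectoderm and 1 of these 6, was at a mean of 0.20 TPM in IM3. Genes used as markers of other epithelia that carry *Krt8* and *Krt18* were also summed, and such a sum does not show which cells carried them. A sum of 6 endoderm genes was 12.1 to 14.0 TPM in M, 327 to 355 in IM1, 334 to 397 in IM3, 596 to 774 in IM2 and 10.4 to 17.2 in iSLC. Of the 6, 4 rose and 0 fell from M to IM1, against 9.72% of all genes called higher. From M to IM3, 3 rose and 0 fell, against 9.26% called higher. A sum of 8 trophoblast genes was 202 to 230.3 TPM in M, 475 to 482 in IM1, 165 to 169 in IM3 and 20.1 to 22.5 in iSLC. Of these genes *Prl3d1* was at or under 3 counts in every M and IM3 library, and *Tpbpa* in every IM3 library. Of the 7 tested, 3 rose and 2 fell from EpiSC to M, where 6.79% and 7.72% of all genes did, with *Hand1* rising by 5.52. Both sums were low in iSLC, as the keratins were. The endoderm sum was also low in M, where *Krt8* was at 888 to 1055 TPM. The part of either sum in the levels of *Krt8*, *Krt18* and *Krt19* was not tested.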

How the data were processed

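Reads were paired-end. According to the submitters' processing notes, the authors used cutadapt 1.9.1, STAR 2.5.2a and RSEM 1.3.0 with the build GRCm38. For each library the authors deposited expected counts per gene, not normalized and not pooled, which were rounded here to whole numbers. TPM and FPKM values were also computed and deposited by the authors, and TPM was used for levels and FPKM as an alternative. Effective lengths in bases came from the same files. Whether counting used strand is not given in the sources used here. *Krt8* shares 5.2% of its exonic bases with a gene on the opposite strand, and *Krt7* 1.1% with another gene.

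GENCODE M21 (GRCm38) matched 48349 of 48795 genes. edgeR 4.0.16 in R 4.3.3 was run with filterByExpr, TMM factors, and glmQLFit and glmQLFTest in one model of 27 libraries with a term for each group, with Benjamini-Hochberg adjustment over 20839 genes. The spread was thus estimated over all groups together. No pair of replicates agreed within counting noise (chi-square per degree of freedom 3.63 to 53.8). The main edgeR fit, the replicate block, the size factors and the Wald test of DESeq2 were run on simulated counts. Changes were set in IM5 only and read in IM5 relative to IM2, by adjusted p and log2 fold change. The fold and count minimums and the division by red blood cell genes were not part of this simulation. Alternatives were the size factors and the Wald test of DESeq2 1.42.0, offsets for effective length and GC content, no filter on low counts, no count minimum, an adjusted p under 0.05, fits of the compared groups alone, a replicate block and each replicate left out.

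The members and lists were chosen with earlier results of these data known. Named were all members, for each other list its counts and at most 4 called genes a comparison by absolute log2 fold change, the 3 genes most correlated with each member, the gene next below *Upk3b* in IM3 relative to IM1, and defining markers of other cell types at or near 0. *AY036118*, *Gm42418*, *Krt23*, *Vim* levels and further means of TPM were named after their values were seen. Urothelium and adult red blood cell lists were used as sums.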

Additional observations from a re-analysis of the deposited data

How the results depend on the processing

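Of 1463 log2 fold changes of members under the alternatives, 1413 kept their direction and their side of the thresholds, 24 were called only under the alternative, 13 lost the call and 13 changed sign. Members called in EpiSC relative to ESC were 1, or 3 with no count minimum, 2 in a fit of the compared groups alone and 1 to 2 when a replicate was left out. In IM2 relative to IM1 they were 1, or 2 with no count minimum and 1 to 2 when a replicate was left out (2 without replicate 3 of IM1). In IM4 relative to IM3 they were 0, or 1 with no count minimum and 1 with the compared groups alone. In IM5 relative to IM2 they were 2, or 1 by the Wald test of DESeq2 and 1 to 2 when a replicate was left out (1 without replicate 2 or 3 of IM5). With no count minimum *Msln* was gained in EpiSC relative to ESC (with *Upk3b*), IM2 relative to IM1 and IM4 relative to IM3, and also in IM1, IM3 and IM4 relative to M, IM2 relative to IM3, IM5 relative to IM4 and IM5 relative to IM2. The 13 changes of sign were in uncalled values near 0. *Krt8* in IM5 relative to IM4 was at -0.0194 with the GC offset and -0.0190 with the GC offset and the replicate block. *Krt18* in IM4 relative to IM3 was at -0.000511 with the size factors of DESeq2, -0.000489 by its Wald test and -0.0583 to 0.0533 when a replicate was left out. Over the replicates left out, *Krt8* in IM3 relative to M ranged from -0.146 to 0.0447, *Krt7* in IM2 relative to IM1 from -0.0274 to 0.132, and in the interaction *Msln* from -0.00997 to 0.238 and *Krt7* from -0.169 to 0.0934. In IM3 relative to IM1, 105 of 112 differences moved by less than the spread between replicates, and 7 of keratins did not. The causes were not tested.

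The replicate block changed no call: 110 of 110 values kept their side, and members called in iSLC relative to IM3 were 6 with and without it. Same-numbered libraries deviated together with a mean correlation of 0.0024 and differently numbered ones of -0.0012, so the numbers were not taken to pair the libraries. Depth limits *Msln* and, before the IM stage, *Upk1b* and *Upk3b*, for which a few counts carry each value.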
